A study of Homo sapiens with 12 samples.

Results

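The nuclear genes of respiratory complexes II to V were followed as a set of 49 genes, chosen by name from the subunits and assembly factors of succinate dehydrogenase (complex II), the cytochrome bc1 complex (complex III), cytochrome c oxidase (complex IV) and ATP synthase (complex V), together with the electron carrier cytochrome c. All 49 were found among the 36601 genes of the table and all 49 reached the required mean of 10 normalized counts, so that they make up 49 of the 15376 genes tested. They comprise 4 genes of complex II, 9 subunits and 2 assembly factors of complex III, CYCS, 11 subunits and 7 assembly factors of complex IV, and 15 subunits of complex V. RNA came from KP4 cells, a human pancreatic ductal carcinoma line whose genotype is labelled WT. The cells were exposed for 24 h to the vehicle DMSO, to 10 mM metformin (Met), to 5 nM FK866 (FK) or to both drugs (Met+FK), with 3 libraries per treatment. The labels number the libraries 1 to 3 but do not say that they came from separate cultures, so the p-values measure the spread between these libraries, which may be technical. All libraries are of 1 cell line in culture, and the Met and Met+FK groups share a single metformin dose and time.

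In respiration, complex II passes electrons from succinate to ubiquinone, complex III passes them on to cytochrome c, and complex IV passes them to oxygen, while protons are pumped across the inner mitochondrial membrane by complexes III and IV. ATP synthase lets the protons flow back through a ring of c subunits and makes ATP in its F1 head. Metformin is known as an inhibitor of complex I, which feeds the same chain from NADH, and FK866 inhibits NAMPT, the enzyme that salvages nicotinamide into NAD. Complexes III to V also hold subunits encoded in mitochondrial DNA, whereas complex II is entirely nuclear.

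The libraries held 30667735 to 41052203 counted read pairs. The 49 genes took 0.777% ± 0.0222 of them in DMSO, 0.704% ± 0.00818 in Met, 0.732% ± 0.0367 in FK and 0.699% ± 0.0113 in Met+FK (SD, n = 3 each). Of the epithelial and ductal markers checked, KRT8, KRT18 and SOX9 were high in every library (at least 2217, 9398 and 3405 normalized counts). KRT7 was at 209 to 314 and MUC1 at 66.1 to 157, while CDH1 (24.2 to 86.5), KRT19 (14.6 to 75.0) and EPCAM (3.78 to 12.5) were low. The mesenchymal VIM was the highest marker of all (at least 93661), with CDH2 at 2818 to 3499, ZEB1 at 544 to 1272 and FN1 at 298 to 455. The acinar and endocrine genes CPA1, AMY2A and INS were at 0, and PRSS1 and GCG reached at most 1.65 and 0.944. Of 9 fibroblast, leukocyte and endothelial markers DCN was at 0 and COL1A2 and CD3E were at or near 0. In both metformin groups 5 of the 9 had a lower mean than in DMSO and 1 a higher one. PTPRC averaged 244 normalized counts in DMSO, 161 in Met, 244 in FK and 134 in Met+FK, and COL1A1 145, 65.3, 274 and 70.6, while PDGFRB went the other way, with 27.7 in Met and 35.9 in Met+FK, both above its mean in DMSO, and 12.3 in FK. The 9 markers summed to 432 to 492 in DMSO, 283 to 295 in Met, 495 to 676 in FK and 227 to 311 in Met+FK, and their part in the results was not tested. Overlapping genes and copies limit single values: 23 of the 49 genes overlap another gene of the table, 20 of them an expressed one, and 33 have pseudogenes annotated under their name in GENCODE 44, most of all CYCS with 42. The stated counting parameters name no strand setting, so whether reads of a gene and of its antisense neighbour were kept apart is not known.

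Most of the 49 genes were lower with metformin. Against DMSO, 27 of the 49 genes were lower and 2 were higher (limma-trend, adjusted p under 0.05), where 25.9% and 24.9% of all genes tested were lower and higher. The median log2 fold change of the 49 genes was -0.21, against 0.01 for all genes tested, and 41 of the 49 were negative. The shifts were small for most genes, with only ATP5MC3, ATP5MC1 and ATP5MF past a fold change of 1.5, which 10.2% of all genes tested passed downward. The libraries of the treatments were fully separated for 30 lower and 3 higher genes in Met, against 29.4% and 27.5% of all genes. With every library scaled to the same total the median of all genes moved to 0.13 and the split became 5 higher and 20 lower, against 34.1% and 19.0% of all genes.

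**Figure D1:**
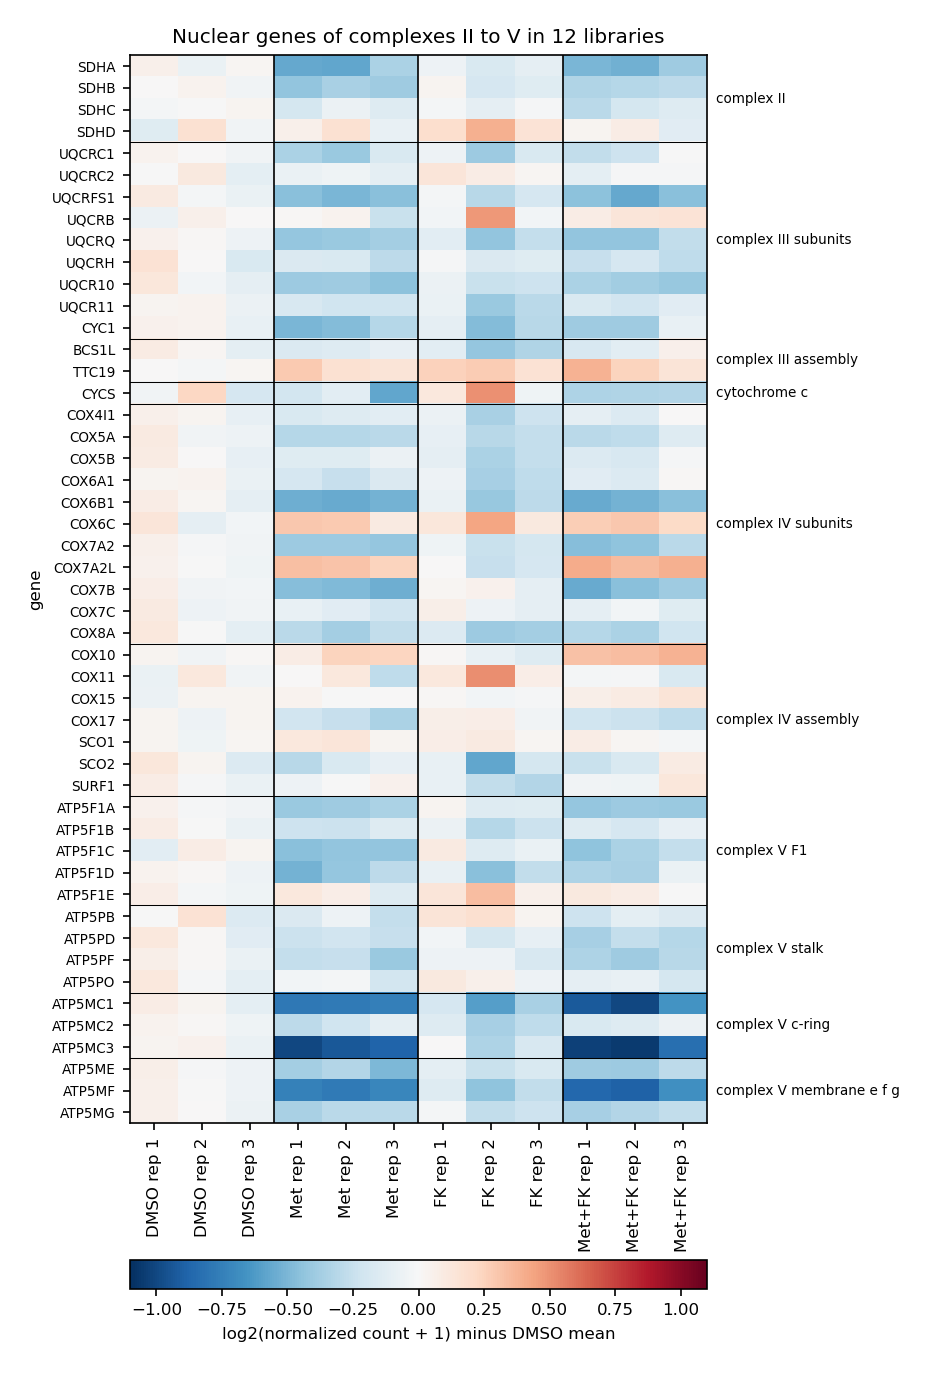
Heat map of the 49 genes (rows, by complex and role) in the 12 libraries (columns); colour gives log2(normalized count + 1) minus the mean of the DMSO libraries, blue lower and red higher. The median over the 49 genes lay between -0.26 and -0.22 in the 3 Met libraries and between -0.25 and -0.14 in the 3 Met+FK libraries, but between -0.25 and -0.03 in the FK libraries, of which FK replicate 1 was nearest to DMSO.

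Most of the lower genes encode subunits. Among the 39 subunit genes 26 were lower and 1 was higher, with a median of -0.31, whereas among the 9 assembly factors 1 was lower and 1 was higher, with a median of 0.00. By complex, 2 of the 4 genes of complex II, 7 of the 9 subunits of complex III, 5 of the 11 subunits of complex IV and 12 of the 15 subunits of complex V were lower in Met. Of all genes tested 25.9% were lower and 24.9% were higher in Met. The difference between subunits and assembly factors was not itself tested. The 9 assembly factors do not stand for all such genes, since PET100, read from a further list below, was lower.

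The sequences before the start sites were read for the genes that moved and for a pair that encodes 1 protein. Promoters of 39 of the 49 genes were matched in the RefSeq table (GRCh38.p14), each with 250 bases before and 50 after the start. ATP5MC3, ATP5F1B, UQCRB, COX11, CYC1, COX6C, SCO2, ATP5F1D, ATP5MF and SDHC were not matched. On either strand, the letters GCGCANGCG of the NRF1 motif were in 13 of 39 promoters (33.3%), against 14.7% of the 10829 promoters of genes tested. The ETS motif CCGGAAG, bound by GABPA, was in 19 of 39 (48.7%) against 18.9%, the YY1 motif ATGGCGGC in 5 (12.8%) against 6.19%, the E-box CACGTG in 4 (10.3%) against 10.0%, and TGATGCAA, a composite element of ATF4, in none against 0.425%. The NRF1 letters were in 10 of the 22 matched promoters of genes lower in Met and 3 of the 15 of genes not called, and the ETS letters in 11 of 22 and 8 of 15. These are counts of letters and not of binding sites. The 200 bases before the start are printed here for 6 genes, 5′ to 3′ on the gene's strand, with NRF1 or ETS letters in capitals. SDHA at chr5:218120-218319 (+) and UQCRFS1 at chr19:29213152-29213351 (-) fell with metformin and hold NRF1 letters, COX6B1 at chr19:35648123-35648322 (+) fell and holds the ETS letters, and COX7A2L at chr2:42361218-42361417 (-) rose and holds neither. ATP5MC1 at chr17:48892587-48892786 (+) and ATP5MC2 at chr12:53676084-53676283 (-) encode the same c subunit.
SDHA: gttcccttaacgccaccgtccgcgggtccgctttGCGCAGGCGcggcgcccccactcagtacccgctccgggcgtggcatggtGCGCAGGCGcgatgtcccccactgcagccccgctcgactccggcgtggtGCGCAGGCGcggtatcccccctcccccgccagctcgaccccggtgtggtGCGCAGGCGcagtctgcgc
UQCRFS1: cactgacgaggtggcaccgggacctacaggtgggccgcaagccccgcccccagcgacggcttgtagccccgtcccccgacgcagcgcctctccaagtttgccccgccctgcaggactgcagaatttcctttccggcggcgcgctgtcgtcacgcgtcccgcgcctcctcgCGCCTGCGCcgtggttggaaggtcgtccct
COX6B1: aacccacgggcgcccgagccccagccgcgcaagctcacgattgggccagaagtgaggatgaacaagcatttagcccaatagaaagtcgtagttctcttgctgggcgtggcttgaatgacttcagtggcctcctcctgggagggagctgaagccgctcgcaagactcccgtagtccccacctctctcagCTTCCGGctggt
COX7A2L: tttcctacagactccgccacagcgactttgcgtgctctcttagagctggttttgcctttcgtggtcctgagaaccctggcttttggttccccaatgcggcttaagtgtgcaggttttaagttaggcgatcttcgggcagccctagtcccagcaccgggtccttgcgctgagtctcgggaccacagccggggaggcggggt
ATP5MC1: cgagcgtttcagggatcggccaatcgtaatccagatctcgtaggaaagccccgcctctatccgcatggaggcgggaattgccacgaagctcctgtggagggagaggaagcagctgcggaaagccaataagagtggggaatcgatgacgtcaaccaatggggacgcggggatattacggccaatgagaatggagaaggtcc
ATP5MC2: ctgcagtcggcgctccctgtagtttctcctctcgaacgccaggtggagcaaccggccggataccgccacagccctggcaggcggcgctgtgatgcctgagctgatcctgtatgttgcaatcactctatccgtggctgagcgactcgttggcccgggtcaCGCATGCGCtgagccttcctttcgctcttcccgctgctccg

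The SDHA promoter holds the NRF1 letters 4 times, beginning 166, 117, 68 and 19 bases before the start and 49 bases apart. UQCRFS1 holds them once, 30 bases before the start, and ATP5MC2 once, 41 bases before it. ATP5MC1, the c subunit gene that fell more, holds neither set of letters in the stretch shown.

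In complex II, SDHA, the flavoprotein subunit that oxidizes succinate, had 7515, 6881 and 7356 normalized counts in the DMSO libraries and 4915, 4877 and 5696 in the Met libraries. All 3 Met libraries lay below all 3 DMSO libraries, and SDHA fell by 28.9% (log2 fold change -0.49 ± 0.076 SE, adjusted p = 9.51e-05). SDHD, a membrane anchor of the same complex, had 2750, 3378 and 2936 in DMSO and 3124, 3373 and 2839 in Met. Its groups overlapped and its log2 fold change was 0.04, with a 95% interval from -0.16 to 0.25.

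In complex III, UQCRFS1, the Rieske iron-sulfur protein that takes electrons from ubiquinol, had 6120, 5626 and 5418 normalized counts in DMSO and 4162, 4036 and 4148 in Met. It fell by 28.0% (log2 fold change -0.47 ± 0.079 SE, adjusted p = 0.000189), with no overlap between the libraries. UQCRB, which binds near the ubiquinone site, had 1739, 1884 and 1826 in DMSO and 1831, 1863 and 1530 in Met, with overlapping groups and a log2 fold change of -0.07 (95% interval -0.32 to 0.19). In a fit corrected per library for the GC content and length of transcripts, UQCRB was called lower, at -0.43 (adjusted p = 1.14e-05). The length used for UQCRB was 8459 bases, at which its level per kilobase in DMSO was the lowest of the 49 genes. Whether these cells express a transcript of that length was not tested. Of the assembly factors, BCS1L, the ATPase that inserts the Rieske protein, had a log2 fold change of -0.13 that did not pass the test. TTC19, which clears Rieske fragments from the assembled complex, had 3500, 3446 and 3540 normalized counts in DMSO and 4280, 3925 and 3865 in Met. It was higher (log2 fold change 0.20, adjusted p = 0.0363), a call that was lost without any 1 of DMSO replicates 1, 2 and 3 or Met replicates 1 and 2 (adjusted p from 0.0585 to 0.153) and in the corrected fit (log2 fold change 0.03). Cytochrome c itself (CYCS) had 10578, 12768 and 9582 in DMSO and 9464, 10058 and 7315 in Met. The CYCS groups overlapped, and the log2 fold change of -0.30 did not pass the test (adjusted p = 0.0854), though it was -0.57 with the trend removed (adjusted p = 1.18e-05).

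Within complex IV the direction differed between genes. COX6B1, a small subunit on the intermembrane face, had 5651, 5442 and 4987 normalized counts in DMSO and 3694, 3653 and 3736 in Met. It fell by 31.0% (log2 fold change -0.54 ± 0.084 SE, adjusted p = 0.000107). COX8A, a small transmembrane subunit, fell by 19.4% (log2 fold change -0.31, adjusted p = 0.00539; adjusted p = 0.0745 with the GC and length trend removed). COX7A2L, the gene for a COX7A2-related protein that joins complexes III and IV into supercomplexes, went the other way, with 5407, 5228 and 5075 normalized counts in DMSO and 6577, 6513 and 6215 in Met. All 3 Met libraries lay above all 3 DMSO libraries, and COX7A2L rose by 22.9% (log2 fold change 0.30 ± 0.072 SE, adjusted p = 0.00314). With the GC and length trend removed its log2 fold change was 0.09 (adjusted p = 0.509); its transcript holds 38.6% GC.

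COX7A2, the related subunit of complex IV proper, was singled out after its values were seen. It had 6242, 5938 and 5824 normalized counts in DMSO and 4549, 4555 and 4461 in Met, a log2 fold change of -0.41 (adjusted p = 0.000319), and -0.35 with the trend removed. The ratio of COX7A2L to COX7A2 normalized counts was 0.873 ± 0.00719 in DMSO and 0.887 ± 0.0186 in FK, but 1.42 ± 0.0270 in Met and 1.51 ± 0.0990 in Met+FK (SD, n = 3). The lowest ratio with metformin, 1.39, lay above the highest without it, 0.907. Of the complex IV assembly factors, COX17, the copper chaperone of the intermembrane space, fell by 17.1% (log2 fold change -0.27, adjusted p = 0.00629; adjusted p = 0.0983 with the libraries scaled to the same total). COX10, the farnesyltransferase of heme A synthesis, had a log2 fold change of 0.19 that did not pass the test (adjusted p = 0.0551), and 0.27 with the GC and length trend removed (adjusted p = 0.00112).

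Complex V held the 3 genes that changed most. ATP5MC3, 1 of the 3 genes for the c subunit of the proton-driven ring, had 8295, 8351 and 7687 normalized counts in DMSO and 4051, 4249 and 4397 in Met. It fell by 47.8% (log2 fold change -0.94 ± 0.089 SE, adjusted p = 1.05e-06). ATP5MC1, a second c subunit gene, had 3141, 3025 and 2760 in DMSO and 1720, 1731 and 1763 in Met. It fell by 41.5% (log2 fold change -0.77 ± 0.108 SE, adjusted p = 4.13e-05). ATP5MF, which encodes the f subunit in the membrane part, had 7474, 7140 and 6905 in DMSO and 4283, 4193 and 4350 in Met, and fell by 40.4% (log2 fold change -0.75 ± 0.082 SE, adjusted p = 4.91e-06). For none of these genes did a Met library reach the lowest DMSO library. On hg38 the table places ATP5MC3 at chr2:175176258-175184607 (-), ATP5MC1 at chr17:48892765-48895871 (+) and ATP5MF at chr7:99448475-99466331 (-). ATP5MF overlaps PTCD1 on the same strand and CPSF4 on the other, so the counting of shared reads bears on its value.

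ATP5MC2 (chr12:53632726-53677408, -), the remaining c subunit gene, encodes the same mature protein but stayed nearer to DMSO, with 5692, 5604 and 5358 normalized counts in DMSO and 4534, 4773 and 5147 in Met. Its log2 fold change of -0.21 passed the test (adjusted p = 0.0310) but not with TMM scaling (adjusted p = 0.0610), with equal totals (adjusted p = 0.330), with the trend removed (adjusted p = 0.159), or without any 1 of DMSO replicates 1 and 2 and Met replicates 1 and 2 (adjusted p from 0.0661 to 0.133). ATP5MC1 and ATP5MC2 transcripts have nearly the same GC content, 55.1% and 54.9%, and nearly the same length, 646 and 632 bases. The ratio of ATP5MC2 to ATP5MC1 normalized counts was 1.87 ± 0.0662 in DMSO and 2.04 ± 0.153 in FK, against 2.77 ± 0.142 in Met and 3.12 ± 0.299 in Met+FK (SD, n = 3), and no library with metformin overlapped a library without it. Per kilobase of the canonical transcript, the summed level of the 3 genes was 16525 ± 711 normalized counts in DMSO and 11950 ± 589 in Met. ATP5MC2 made up 53.2% ± 0.654 of that sum in DMSO and 63.8% ± 0.940 in Met, while ATP5MC3 went from 19.0% ± 0.239 to 13.7% ± 0.161. These shares rest on 1 annotated length per gene, which is 2587 bases for ATP5MC3. In normalized counts ATP5MC3 had the highest mean of the 3 in DMSO, 8111 against 5551 for ATP5MC2 and 2975 for ATP5MC1. In Met ATP5MC2 had the highest, 4818 against 4232 for ATP5MC3 and 1738 for ATP5MC1.

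**Figure D2:**
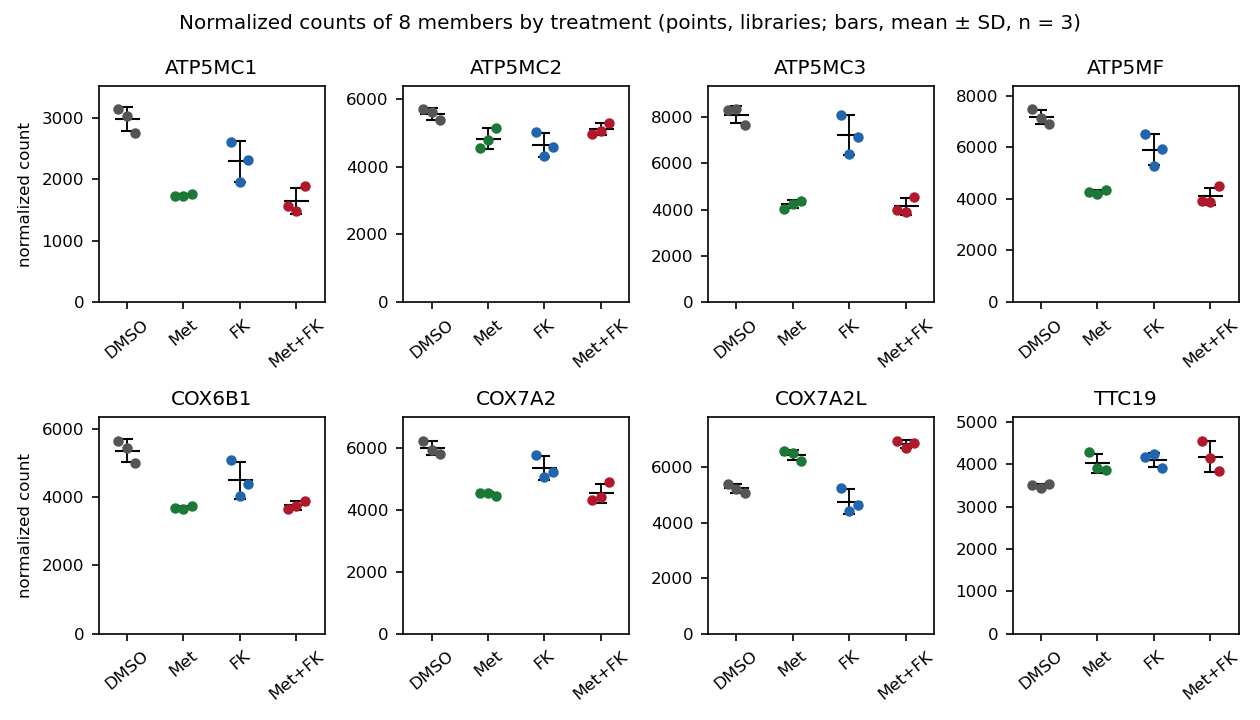
Normalized counts (vertical axis, from 0) of 8 genes in the 12 libraries, with points for libraries and bars for the mean ± SD of 3. ATP5MC1, ATP5MC3, ATP5MF, COX6B1 and COX7A2 are lower in both metformin groups than in DMSO, ATP5MC2 moves less, and COX7A2L is higher with metformin than without it.

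The rest of complex V followed in smaller steps. In the F1 head 4 of 5 genes were lower, led by ATP5F1C, the central shaft subunit, at a log2 fold change of -0.44 (adjusted p = 0.000348). ATP5F1E, the small epsilon subunit, had 3799, 3564 and 3495 normalized counts in DMSO and 3925, 3803 and 3278 in Met, with overlapping groups and a log2 fold change of 0.02 that did not pass the test. With the GC and length trend removed it was called lower, at -0.27 (adjusted p = 0.00552). In the peripheral stalk that holds the head still, ATP5PF fell by 19.2% (adjusted p = 0.00237), while ATP5PO, the OSCP subunit at its top, had a log2 fold change of -0.08 (95% interval -0.25 to 0.09). All 3 of the e, f and g subunit genes were lower, ATP5MG by the smallest step, -0.32 (adjusted p = 0.00242).

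The effect of metformin in FK866-treated cells can be read from Met+FK against FK, which shares no library with Met against DMSO. Here 17 of the 49 genes were lower and 3 were higher, against 21.7% and 20.5% of all genes tested, and the median log2 fold change was -0.12. With equal totals the split became 8 higher and 13 lower, where 24.9% and 17.8% of all genes were higher and lower. Of the 27 genes lower in Met against DMSO 15 were lower here as well, which is 55.6% of the first list and 88.2% of the 17. The overlap over all genes is not given, so it is not read as particular to these genes. The 15 include SDHA (-0.37, adjusted p = 0.00124), UQCRFS1 (-0.32, adjusted p = 0.00451), ATP5MC1 (-0.47, adjusted p = 0.00259) and ATP5MF (-0.53, adjusted p = 0.000130). ATP5MC3 is also among them, the only gene past a fold change of 1.5 (9.29% of all genes downward), at -0.80 (adjusted p = 5.21e-06).

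COX7A2L was again higher, with 5254, 4401 and 4617 normalized counts in FK and 6952, 6679 and 6881 in Met+FK. It rose by 44.1% (log2 fold change 0.53, adjusted p = 3.77e-05), and with the GC and length trend removed the change was 0.65 (adjusted p = 6.51e-05). COX10 had 1233, 1155 and 1108 in FK and 1523, 1549 and 1590 in Met+FK, a log2 fold change of 0.42 (adjusted p = 0.000511). The libraries of both genes were fully separated, as they were for 4 higher and 25 lower genes in all (24.9% and 26.0% of all genes tested). CYCS fell by 30.3% (log2 fold change -0.52, adjusted p = 0.00722), from 11831, 15423 and 10557 in FK to 8607, 8682 and 8715 in Met+FK. SURF1, an assembly factor of complex IV named because only 3 genes were higher, was the third. Without Met+FK replicate 1 the count of lower genes was 11 (17.6% of all genes), and without FK replicate 1 the count of higher genes was 6 (18.8%).

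**Figure D3:**
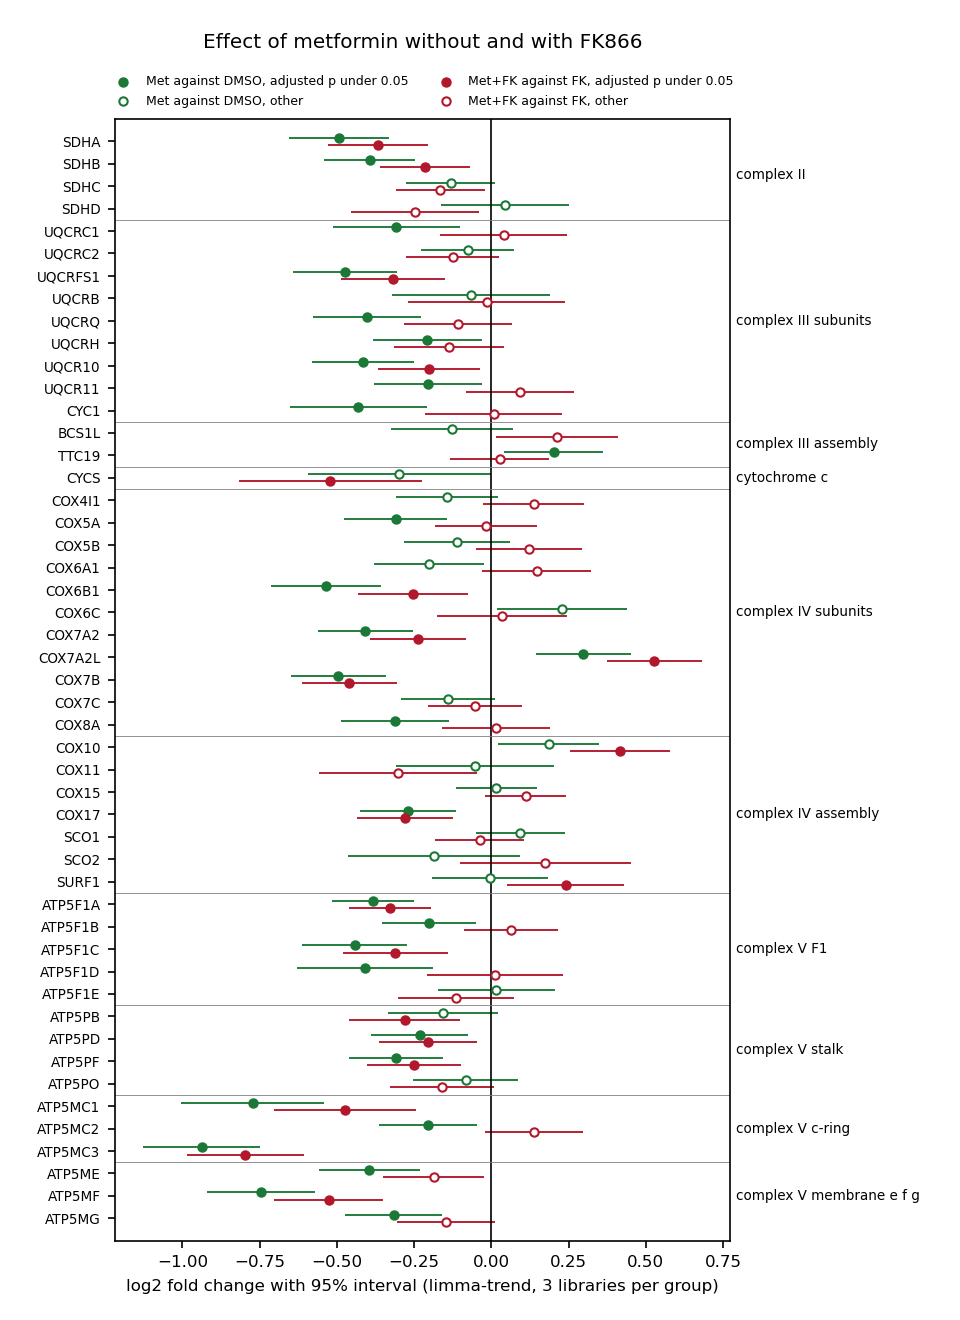
Log2 fold change (horizontal axis, with 95% intervals) of each of the 49 genes for Met against DMSO (green) and Met+FK against FK (red), with filled points where the adjusted p was under 0.05. ATP5MC3 is lowest in both comparisons, COX7A2L is highest in both, and 28 of the 49 genes are negative in both. The share of all genes negative in both is not given.

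Against DMSO, Met+FK gave 24 lower and 4 higher genes (26.1% of all genes tested in each direction), with a median of -0.21. ATP5MC3 fell by 48.9%, ATP5MC1 fell by 44.9% and ATP5MF fell by 43.0%, and these were the 3 past a fold change of 1.5, against 11.3% of all genes downward. Libraries were fully separated for 28 lower and 6 higher genes (30.4% and 30.5% of all genes). The higher genes were TTC19 (0.26, adjusted p = 0.0103), COX7A2L (0.39, adjusted p = 0.000434), COX10 (0.35, adjusted p = 0.00149) and the complex IV subunit COX6C, the last named because the count was small. With the GC and length trend removed TTC19 was at 0.11 (adjusted p = 0.119) and COX7A2L at 0.22 (adjusted p = 0.0819), and without Met+FK replicate 1 TTC19 was at 0.19 (adjusted p = 0.0664). This comparison uses the same DMSO libraries as Met against DMSO, so the likeness of their values is not independent. Without Met+FK replicate 1 there were 2 higher genes (22.4% of all genes).

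With FK866 added to metformin no gene of the 49 passed the test. For Met+FK against Met no gene was called in either direction by limma-trend, where 0.0911% of all genes were higher and 0.0065% lower. None was called by edgeR (0.0911% and 0.013% of all genes) or by DESeq2 (0.338% and 0.143%), and in limma-trend none of the 49 had an unadjusted p under 0.05, against 6.84% of all genes. The log2 fold changes ran from -0.09 for ATP5MC1 to 0.19 for UQCRB, and the 95% intervals of the 49 genes lay between -0.33 and 0.44. ATP5MC3 had 3988, 3899 and 4558 normalized counts in Met+FK, overlapping the 4051, 4249 and 4397 of Met. The libraries were still fully separated for 7 genes in the higher direction and 1 in the lower (7.88% and 5.56% of all genes), COX7A2L among the former.

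FK866 alone changed fewer of these genes, and its calls, like those of all genes, depended on which libraries were included. Against DMSO 9 genes were lower and 1 was higher, where 9.84% and 11.3% of all genes tested were called, and the median was -0.14. ATP5MC1 had 2609, 1950 and 2318 normalized counts in FK, all below the DMSO libraries, and fell by 23.4% (log2 fold change -0.38, adjusted p = 0.0304). COX8A had 4671, 3946 and 4021 in FK and fell by 19.2% (adjusted p = 0.0271). ATP5MC2 had 5029, 4315 and 4571 in FK, a log2 fold change of -0.26 (adjusted p = 0.0313), and UQCRQ, a small subunit of complex III, had 4909, 3933 and 4427, a log2 fold change of -0.27 (adjusted p = 0.0352). TTC19 was the gene that was higher, at 4165, 4233 and 3903 (log2 fold change 0.23, adjusted p = 0.0447). Libraries were fully separated for 15 genes in the lower direction and 1 in the higher, against 21.6% and 17.2% of all genes.

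No gene was lower without DMSO replicate 1, DMSO replicate 3, FK replicate 2 or FK replicate 3, where the share of all genes called lower was 0.169%, 0.774%, 0.397% and 5.19%. There were 5 lower genes without DMSO replicate 2 (10.3% of all genes), and 24 were lower without FK replicate 1 (15.2% of all genes). The replicate numbers were taken to pair the FK and DMSO libraries, though whether they mark true pairs was not tested. A fit blocked on these numbers called 22 genes lower and 5 higher (21.3% and 23.3% of all genes). The effect also ran along base composition. Across the 49 genes, which share the same 6 libraries, the log2 fold change of FK against DMSO had a Pearson correlation of -0.71 (Spearman -0.79) with the GC content of the canonical transcript. The slope of all genes on GC was 0.14 ± 0.0842 log2 units per 10 percentage points in the DMSO libraries and -0.09 ± 0.136 in the FK libraries, with FK replicate 2 at -0.25 (SD, n = 3). In the fit corrected for GC and length 9 genes were again lower (6.57% of all genes), but UQCRQ was the only 1 in both lists, and the correlation was 0.43 (Spearman 0.48). The part of base composition in the FK effect was not tested beyond this. For Met against DMSO the correlation was -0.23 (Spearman -0.29), and the corrected fit called 31 genes lower and 2 higher (32.6% and 24.7% of all genes).

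**Figure D4:**
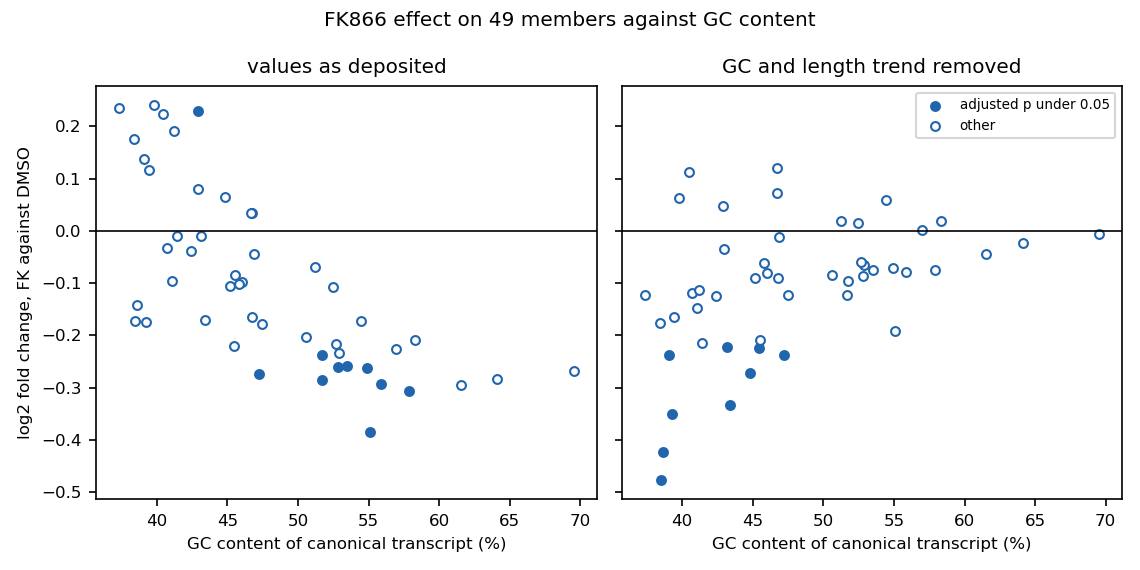
Log2 fold change of FK against DMSO (vertical axis) against GC content of the canonical transcript in percent (horizontal axis) for the 49 genes, from the values as deposited (left) and with each library's GC and length trend removed (right); filled points had an adjusted p under 0.05. The 9 lower genes lie between 47.2% and 57.9% GC on the left and between 38.5% and 47.2% on the right.

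The interaction, the effect of FK866 in the presence of metformin minus that in its absence, was called for none of the 49 genes by limma-trend, where 0.0065% of all genes were higher and 0.052% lower. None was called by edgeR (0.0065% and 0.0585% of all genes) or by DESeq2 (1.71% and 2.81%). A fit blocked on the replicate numbers called 14 genes higher and 1 lower (15.5% and 16.5% of all genes). The numbers were taken to pair both comparisons the interaction is made of, but not Met with DMSO. The block is shared by all 12 libraries, so these calls also rest on pairing that was not shown. With the GC and length trend removed as well, the blocked fit called 9 higher (4.78%). In those values Met+FK and Met fell short of the required 0.1, with correlations of 0.0954 and 0.0748 for replicates 2 and 3. Without the block, on the values as deposited, 14 of the 49 genes had an unadjusted p under 0.05, or 28.6% against 30.5% of all genes. The median was 0.17. Across the 49 genes the interaction had a Pearson correlation of 0.75 (Spearman 0.79) with GC content, and -0.45 (Spearman -0.48) with the trend removed. The interaction contains the effect of FK against DMSO with its sign turned, so these correlations are not independent of those given above for FK. ATP5MC2, at 54.9% GC, had an interaction of 0.34 (adjusted p = 0.110), which was 0.15 with the trend removed. COX8A, at 57.9% GC, had 0.33 (adjusted p = 0.113), which was 0.08 with the trend removed. Both genes had been named for a small adjusted p in FK against DMSO, where they were lower, which favours a positive interaction. Without FK replicate 1, 13 genes were called higher (6.37% of all genes).

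Other genes of the same chain were read from lists. Among 43 further nuclear genes of complexes II to V, mostly assembly factors and additional subunits, 19 were lower (44.2%) and 2 were higher (4.65%) in Met against DMSO, where 25.9% and 24.9% of all genes were called, and the median was -0.19. The lowest was PET100, an assembly factor of complex IV (-0.85, adjusted p = 3.00e-06), and the highest LRPPRC, which stabilizes mitochondrial mRNA (0.44, adjusted p = 0.0115). Of the 37 nuclear subunits of complex I 25 were lower (67.6%) and 1 was higher, against the same shares, with a median of -0.33. Of the 6 mitochondrially encoded subunits of complexes III to V, MT-ATP6 and MT-ATP8 were lower (33.3% of the 6, against 25.9% of all genes), by -0.73 and -0.79 (adjusted p = 0.000188 and 0.000167), and the other 4 lay between -0.19 and -0.05 without passing the test. MT-ATP6 and MT-ATP8, named because they are the only genes called, encode the a and A6L subunits in the membrane part of ATP synthase.

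Of 12 regulators of nuclear respiratory genes 3 were lower (25.0%) and 1 was higher (8.33%) in Met against DMSO, so that the share that was lower was near the 25.9% of all genes. NRF1, the factor whose letters were searched above, had 1325, 1106 and 1164 normalized counts in DMSO and 765, 726 and 804 in Met, a log2 fold change of -0.64 (adjusted p = 0.000104). PPRC1, a coactivator of NRF1, was at -0.65 (adjusted p = 0.000228) and ESRRA, a nuclear receptor active on respiratory genes, at -0.34 (adjusted p = 0.00348). MYC was higher, at 0.38 (adjusted p = 0.000497). In Met+FK against FK the log2 fold change of NRF1 was -0.28 (adjusted p = 0.0349) and that of MYC 0.89 (adjusted p = 2.28e-07). Whether NRF1 bears on the 49 genes was not tested. The other regulators, GABPA, GABPB1, YY1, TFAM, TFB1M, TFB2M, POLRMT and PPARGC1B, lay between -0.24 and 0.34 in Met against DMSO without passing the test.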

How the data were processed

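RNA from KP4 cells (kit with ribosomal RNA depletion, paired reads) was sequenced in 12 libraries, 3 per treatment. Per the paper's methods, the authors used cutadapt for trimming, STAR for alignment to hg38, featureCounts for pairs per gene and DESeq2 for normalization; the annotation and strand setting are not given in the sources used here. The deposited values are a signal: each library's gene counts over its DESeq2 size factor (0.867 to 1.21). Dividing by the smallest step gave whole read pairs for 100% of the values within 0.01 reads; 0 columns were left unmapped. Chi-square per degree of freedom between replicates was 5.69 to 51.4, above sampling noise. Table starts count from 0 and were raised by 1.

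Genes were tested with limma-trend (version 3.58.1 in R 4.3.3). Values were taken as log2(normalized count + 1), all 12 libraries shared a fit with a mean for each treatment, and the 15376 genes averaging 10 or more were kept. Fold changes on that scale understate the change of low genes. Calls had a Benjamini-Hochberg adjusted p under 0.05 over all genes tested, and the study's further threshold, a fold change over 1.5, is given beside them. The test was tested on simulated data. Values after ± are SDs unless marked SE. Groups came from GEO's labels. Libraries with the same number deviated together from their groups, with correlations of 0.252, 0.420 and 0.219 for FK and DMSO. For Met+FK and Met they were 0.171, 0.200 and 0.226. Each lay above the 0.1 required of every pair, so the numbers were taken to pair those 2 comparisons from the data. The other comparisons each had a pair below 0.1. Met and DMSO had 0.0129 for replicate 1, but 0.328 and 0.248 for replicates 2 and 3. Libraries with different numbers were not correlated, so whether the numbers mark true pairs was not tested. GC content and length are those of GENCODE 44 canonical transcripts, known for 99.7% of genes tested; that trend was a loess fit (span 0.3) per library.

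Alternatives were another pseudocount, no filter, equal totals, TMM scaling, edgeR 4.0.16 quasi-likelihood and DESeq2 1.42.0 on recovered read pairs, the replicate block, GC correction, a fit of 6 libraries and leaving out each library. The members and lists were chosen with earlier results of these data known. Genes were named by rule: those past the fold threshold, the highest and lowest of each role in Met against DMSO, up to 5 called in Met+FK against Met or the interaction, the 5 with the smallest adjusted p in FK against DMSO, and the 3 c subunit genes; the rule named 22.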

Additional observations from a re-analysis of the deposited data

How the results depend on the processing

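Counts of called genes among the 49 are given as higher and lower. For Met against DMSO (2 and 27), the higher count was 1 without a filter on low values, 5 with equal totals, and 4 with TMM scaling, with edgeR and with the replicate block. Over all genes the higher count was 3834 in the main fit and 3757 of 26798 without the filter. It was 5241 with equal totals, 4173 with TMM scaling, 4134 with edgeR and 4655 with the block. Requiring a fold change over 1.5 left 0 and 3 of the 49, and 1964 and 1566 of all genes. For FK against DMSO (1 and 9), the counts were 0 and 3 without the filter, 0 and 0 with the fold threshold or in a fit of only the 6 libraries compared, 1 and 5 with TMM scaling or edgeR, 1 and 12 with DESeq2, 5 and 22 with the replicate block, 0 and 9 with the GC and length trend removed, and 0 and 12 with that and the block. Over all genes the main fit called 1738 and 1513, against 981 and 731 of 26798 without the filter. The fold threshold left 420 and 116 of all genes, and the fit of 6 libraries 111 and 41. TMM scaling gave 1982 and 1130, edgeR 1961 and 1062, DESeq2 2267 and 1824 and the block 3586 and 3268. With the trend removed there were 625 and 1007 of 15324, and with the block as well 1162 and 1882. Met+FK against DMSO (4 and 24) gave 0 and 3 with the fold threshold (2110 and 1745 of all genes). Met+FK against FK (3 and 17) gave 8 higher with equal totals (3833 of all genes). It gave 5 higher with the GC and length trend removed and the block (4331 of 15324 genes), and 0 and 1 with the fold threshold (1425 and 1429 of all genes). Met+FK against Met (0 and 0) gave 1 higher with the trend removed and the block (309 of 15324 genes), and 0 under the other settings. The interaction (0 and 0) gave 14 and 1 with the replicate block, where 15.5% and 16.5% of all genes were called. It gave 1 higher with the trend removed (60 of 15324 genes), and 9 higher with both (4.78% of all genes). The numbers were not shown to pair the libraries of Met and DMSO, of Met+FK and DMSO or of Met+FK and FK, where the block gave 4 and 31, 4 and 28, and 4 and 22. Over all genes it gave 4655 and 4607, 4806 and 4596, and 3868 and 4201 in these comparisons. The block ended no call of a named gene in Met against DMSO, Met+FK against DMSO or Met+FK against FK. The causes of these shifts were not tested.

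Leaving out 1 library gave 1 to 3 higher and 21 to 28 lower for Met against DMSO (1 higher without DMSO replicate 2, DMSO replicate 3 or Met replicate 2), 0 to 1 and 0 to 24 for FK against DMSO, 2 to 4 and 19 to 24 for Met+FK against DMSO, 2 to 6 and 11 to 19 for Met+FK against FK, 0 and 0 for Met+FK against Met, and 0 to 13 higher and 0 lower for the interaction, the 13 without FK replicate 1. Over all genes the same fits gave 3164 to 3892 higher and 3337 to 4067 lower for Met against DMSO. For FK against DMSO they gave 107 to 2602 and 26 to 2341. They gave 3302 to 3931 and 3381 to 3835 for Met+FK against DMSO, and 2615 to 3156 and 2704 to 3206 for Met+FK against FK. For Met+FK against Met they gave 2 to 9 and 0 to 1. The interaction without FK replicate 1 was called higher for 980 of all genes and lower for 865. No named call changed direction under any setting. Of the named calls 10 of 15 in Met against DMSO, 11 of 15 in Met+FK against DMSO, 11 of 12 in Met+FK against FK and 0 of 8 in FK against DMSO held under every one of the 17 settings. With 3 libraries per group, the median standard error of a log2 fold change was 0.0795 over the 49 genes, which limits what smaller shifts can show.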
